A study of Mus musculus with 4 samples.

Results

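The mouse Cyp2c genes encode cytochrome P450 enzymes of subfamily 2C, and 10 of them were followed here in the livers of PA and WT mice. They were taken by symbol, as the 10 named Cyp2c genes of chromosome 19, among 55487 gene identifiers in the count tables. All 10 matched an identifier, Cyp2c44 through its current symbol Cyp2c23. Another 8 annotated Cyp2c genes and pseudogenes were used for comparison. PolyA RNA came from frozen livers of 4 female FVB mice, 11 weeks old and fed standard chow. The 2 PA mice were labelled hypomorphic Pcca-/- with the allele A138T, and the 2 WT mice were labelled wild type. Pcca codes for the biotin-carrying subunit of propionyl-CoA carboxylase, and the labels call the replicates biological.

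CYP2C enzymes sit in the membrane of the endoplasmic reticulum and take electrons from the reductase encoded by Por. In liver they oxidise drugs, steroids and polyunsaturated fatty acids, and several of the mouse enzymes turn arachidonic acid into epoxides or hydroxy acids that act as lipid signals. The genes arose by repeated local duplication, so neighbours are near copies of each other, and some of them are known to be transcribed at different levels in male and female liver under the control of growth hormone. Members also differ in their response to the drug sensors CAR and PXR.

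Gene counts per library came to 25990553 and 30110400 in PA replicates 1 and 2 and to 29627033 and 25575016 in WT replicates 1 and 2. Values are given as CPM, read counts scaled to library size with TMM factors, unless stated, and TPM, transcript abundances scaled to a fixed total, are used to compare one gene with another, since only TPM is corrected for transcript length. A gene was called when its adjusted p in the edgeR quasi-likelihood test over all tested genes was under 0.05. Pcca itself was at 34.2 and 47.4 CPM in the PA livers, against 60.3 and 58.9 CPM in the WT livers, and was not called (log2 fold change -0.55, edgeR adjusted p = 0.398). The liver identity of the tissue was read from the level of 9 hepatocyte markers. They summed to 143723 and 178113 CPM in PA and to 159998 and 173772 in WT (here without TMM factors, as in all marker sums). Most of each sum was Alb. Of the 9 markers 0 were called, which compares PA with WT and does not bear on identity. The mitochondrial genome supplied 13.6 and 8.98% of gene counts in PA and 6.90 and 7.38% in WT, and multimapping reads were 13.5 and 9.19% of all reads in PA and 9.11 and 9.42% in WT. PA replicate 1 therefore stood apart from the other 3 libraries on both measures, and their part in the results below was not tested.

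No Cyp2c member was called. All 10 passed the filter on low counts, and edgeR, DESeq2 and limma-voom each called 0, against 0.812% of the 14411 genes tested by edgeR (0.264% higher in PA and 0.548% lower). At an unadjusted edgeR p under 0.05 there were 3 members, against 11.8% of all tested genes: Cyp2c38 and Cyp2c39 with higher values in PA (5.88% of tested genes) and Cyp2c44 with lower values (5.93%). The median log2 fold change (PA over WT) of the members was -0.05, against 0.0049 over all tested genes, with 5 members above 0 and 5 below. For 5 members the CPM of the groups did not overlap, 2 higher in PA and 3 lower, and 43.2% of all tested genes had the same property (21.3% higher and 21.9% lower), so this count is near the background. In whole liver, fewer cells of a type and less RNA per cell cannot be told apart.

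**Figure D1:**
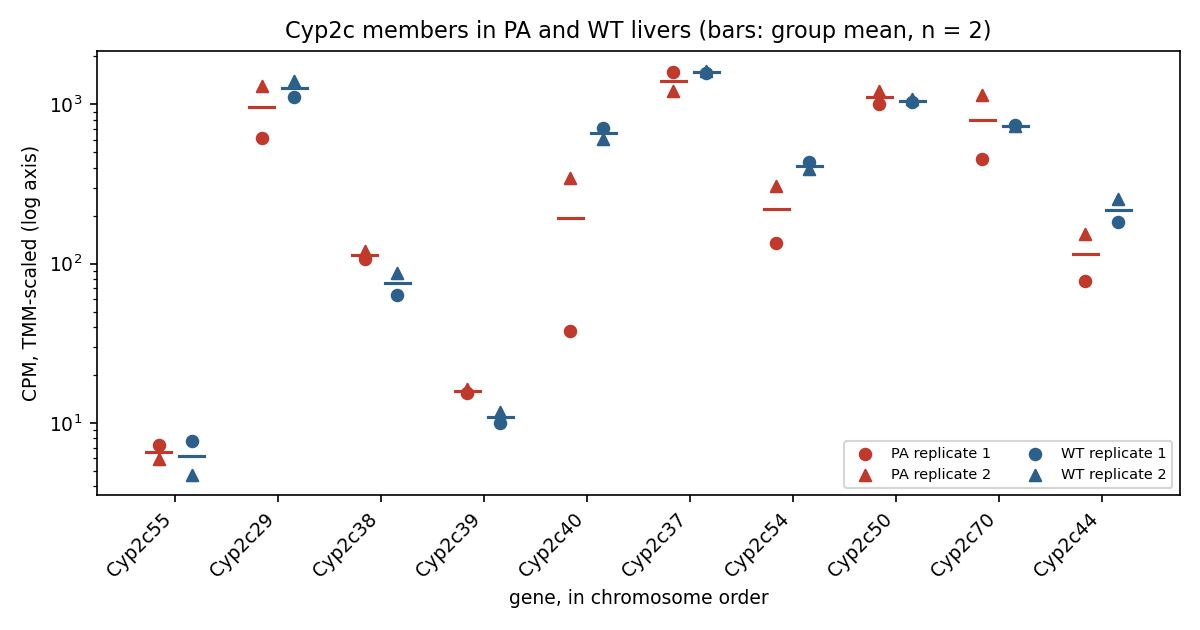
CPM of the 10 members (log axis) in PA replicates 1 and 2 (red) and WT replicates 1 and 2 (blue), with group means as bars. The PA points of Cyp2c40 lie at 37.6 and 346 CPM, far apart from each other and below both WT points, while the PA points of Cyp2c38 and Cyp2c39 lie close together and above both WT points.

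The members were compared by level on the TPM scale. In WT livers Cyp2c37 was the most abundant at 1067 ± 19.6 TPM, followed by Cyp2c40 at 905 ± 147 TPM, Cyp2c29 at 842 ± 106 TPM and Cyp2c50 at 759 ± 10.4 TPM (SD, n = 2). The libraries of Cyp2c40 and Cyp2c29 overlapped, so these neighbours in the order did not differ beyond their spread. Below them came Cyp2c70 at 540 ± 29.1 TPM, Cyp2c54 at 275 ± 31.4 TPM and Cyp2c44 at 135 ± 26.5 TPM in WT livers. Cyp2c38, Cyp2c39 and Cyp2c55 closed the order at 28.1 ± 5.07, 6.62 ± 0.594 and 3.75 ± 1.35 TPM in WT livers. In PA livers Cyp2c37 averaged 803 ± 29.3 TPM, Cyp2c50 692 ± 197 TPM, Cyp2c29 577 ± 370 TPM and Cyp2c70 538 ± 390.4 TPM, and the ranges of all 4 overlapped. Cyp2c40 stood lower in the PA order, at 241 ± 286 TPM.

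Cyp2c29, Cyp2c38 and Cyp2c39 form a group of close relatives, whose coding sequences were 89.1 to 94.2% identical. Cyp2c29 (ENSMUSG00000003053, chromosome 19, 39269405 to 39330713, plus strand, GRCm38) is an arachidonic acid epoxygenase known for its induction through CAR. It was at 615 and 1307 CPM in the PA livers and at 1112 and 1406 CPM in the WT livers. PA replicate 1 was low and PA replicate 2 lay between the WT livers, so the groups overlapped. The log2 fold change was -0.39 with a 95% interval of -1.30 to 0.52 (edgeR adjusted p = 0.763), with 0.06 when PA replicate 1 was left out and -1.04 when PA replicate 2 was left out.

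Cyp2c38 (ENSMUSG00000032808, chromosome 19, 39389556 to 39463075, minus strand), an epoxygenase of arachidonic acid, was at 106 and 119 CPM in PA and at 63.2 and 87.2 CPM in WT. Both PA values lay above both WT values. The log2 fold change of 0.59 (SE 0.23, 95% interval 0.03 to 1.14) did not pass the threshold (edgeR adjusted p = 0.394). Cyp2c39 (ENSMUSG00000025003, chromosome 19, 39510862 to 39568529, plus strand) encodes an enzyme that oxidises arachidonic acid and also retinoic acid. It was at 15.5 and 16.4 CPM in PA and at 10.01 and 11.8 CPM in WT, again with no overlap. Its log2 fold change was 0.55 (SE 0.20, 95% interval 0.07 to 1.03, edgeR adjusted p = 0.352). The direction of both genes was the same in each of 14 alternative fits. On the TPM scale the groups overlapped: Cyp2c38 was at 29.8 and 43.6 TPM in PA and at 24.5 and 31.6 TPM in WT, and Cyp2c39 at 6.79 and 9.76 TPM in PA and at 6.2 and 7.04 TPM in WT. Of the 10 members, 0 had PA values wholly above WT values in TPM, against 7.67% of all tested genes. PA values were wholly below WT values in TPM for 4 members (Cyp2c37, Cyp2c40, Cyp2c44 and Cyp2c54), against 36% of all tested genes, so this count is near the background.

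Cyp2c40 (ENSMUSG00000025004, chromosome 19, 39767071 to 39812814, minus strand), whose enzyme makes hydroxy acids from arachidonic acid and whose transcript is more abundant in female than in male mouse liver, varied most among the members. It was at 37.6 and 346 CPM in the PA livers and at 710.4 and 605 CPM in the WT livers. Both PA values lay below both WT values, and PA replicate 2 exceeded PA replicate 1 by 9.21-fold. Only 0.285% of tested genes had a gap between the PA libraries as large as that. The mean of 192 ± 218 CPM in PA, against 658 ± 74.2 CPM in WT (SD, n = 2 each), gave a log2 fold change of -1.78 (SE 0.84, 95% interval -3.75 to 0.19, edgeR adjusted p = 0.478). Without PA replicate 2 it was -4.13 (edgeR adjusted p = 0.000454) and without PA replicate 1 it was -0.92 (edgeR adjusted p = 0.0840). A fit without a PA library leaves 1 PA mouse, which is assumed to vary like the WT mice. With all 4 libraries and no filter on low counts Cyp2c40 was called at -1.79 (SE 0.29, edgeR adjusted p = 6.49e-08). The log2 fold change hardly moved in that fit, while the SE fell from 0.84, although the gap between the PA libraries was the same.

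**Figure D2:**
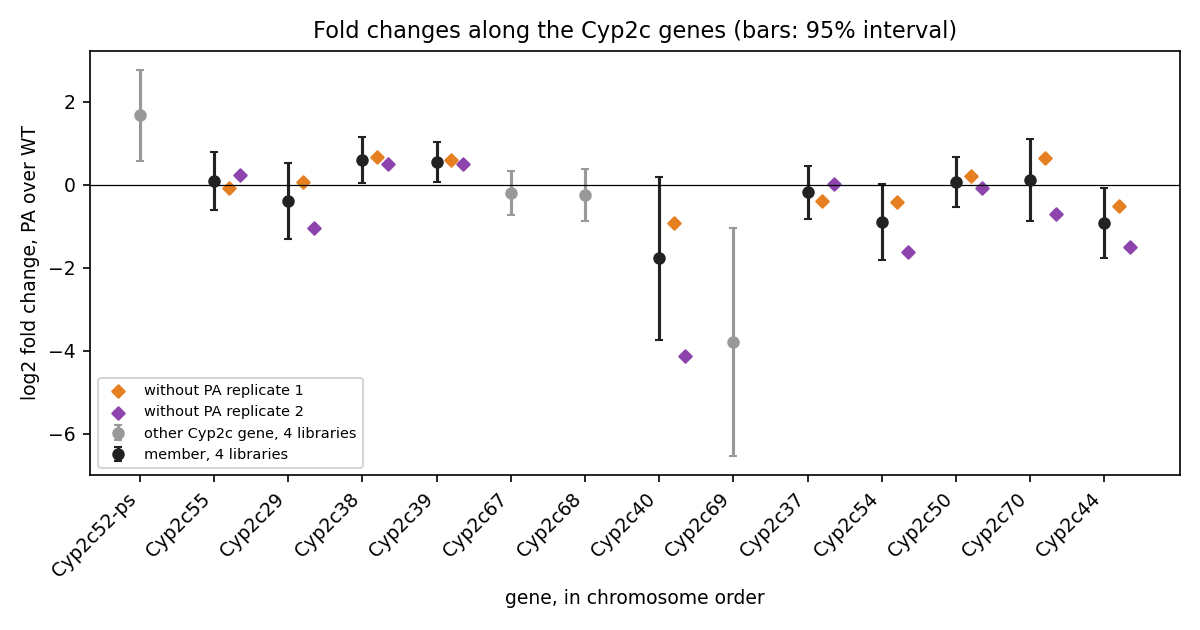
Log2 fold change (PA over WT) of 14 tested Cyp2c genes in chromosome order, with 95% intervals; members are black and other Cyp2c genes grey, and diamonds give the members' values without PA replicate 1 (orange) or PA replicate 2 (purple). The diamonds of Cyp2c40 lie at -0.92 and -4.13, the widest split among the members, and those of Cyp2c38 and Cyp2c39 stay close to the 4-library values.

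The closest relatives of Cyp2c40 are Cyp2c67, Cyp2c68 and Cyp2c69, which share its stretch of the cluster and are 97.7 to 98.1% identical to it in coding sequence. Cyp2c69 was at 13.1 and 273 CPM in PA and at 2312 and 1658 CPM in WT. PA replicate 1 again lay far below PA replicate 2, here by 20.9-fold, and both lay far below WT (log2 fold change -3.79, SE 1.16, edgeR adjusted p = 0.259). Cyp2c68 was at 605 and 819 CPM in PA and at 824 and 864 CPM in WT (log2 fold change -0.25, edgeR adjusted p = 0.781). Cyp2c67 was at 169 and 202 CPM in PA and at 221 and 207 CPM in WT (log2 fold change -0.20, edgeR adjusted p = 0.788). None of these 3 was called by edgeR, and the differences between the 4 relatives were not tested against each other.

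The upstream sequences of these 4 genes are printed because the genes are near copies whose PA values lay at different distances from WT. Each line gives the 250 bases before the RefSeq start, 5′ to 3′, and capitals mark the HNF4A core motif CAAAGTC on either strand. They lie at chr19:39812815-39813064 for Cyp2c40, chr19:39886770-39887019 for Cyp2c69, chr19:39741102-39741351 for Cyp2c68 and chr19:39649043-39649292 for Cyp2c67, all on the minus strand of GRCm38.p6.
Cyp2c40: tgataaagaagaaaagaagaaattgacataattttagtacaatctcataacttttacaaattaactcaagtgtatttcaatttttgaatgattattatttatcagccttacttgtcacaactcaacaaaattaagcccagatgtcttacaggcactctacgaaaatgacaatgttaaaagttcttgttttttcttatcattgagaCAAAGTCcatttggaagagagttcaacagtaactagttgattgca
Cyp2c69: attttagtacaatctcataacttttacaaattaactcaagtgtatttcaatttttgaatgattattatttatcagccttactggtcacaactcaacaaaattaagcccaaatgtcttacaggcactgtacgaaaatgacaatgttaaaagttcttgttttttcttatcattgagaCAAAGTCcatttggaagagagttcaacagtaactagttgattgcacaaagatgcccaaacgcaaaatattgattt
Cyp2c68: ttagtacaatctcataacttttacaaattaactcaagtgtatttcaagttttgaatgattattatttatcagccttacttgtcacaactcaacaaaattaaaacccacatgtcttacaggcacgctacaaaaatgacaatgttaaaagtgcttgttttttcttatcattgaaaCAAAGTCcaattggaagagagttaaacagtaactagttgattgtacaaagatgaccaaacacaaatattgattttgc
Cyp2c67: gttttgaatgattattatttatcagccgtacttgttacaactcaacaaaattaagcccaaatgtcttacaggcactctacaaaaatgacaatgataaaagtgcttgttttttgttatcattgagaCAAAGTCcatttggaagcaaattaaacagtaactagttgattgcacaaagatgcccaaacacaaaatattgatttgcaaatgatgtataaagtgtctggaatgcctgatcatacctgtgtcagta
Where they overlap, the upstream stretches of Cyp2c40 and Cyp2c69 were 98.6% identical over 220 columns, those of Cyp2c40 and Cyp2c68 94.95% over 218, and those of Cyp2c40 and Cyp2c67 92.9% over 170 columns. The annotated starts differ, so the motif lies at position -45 from the start in Cyp2c40 and at -75, -77 and -125 in Cyp2c69, Cyp2c68 and Cyp2c67.

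**Figure D3:**
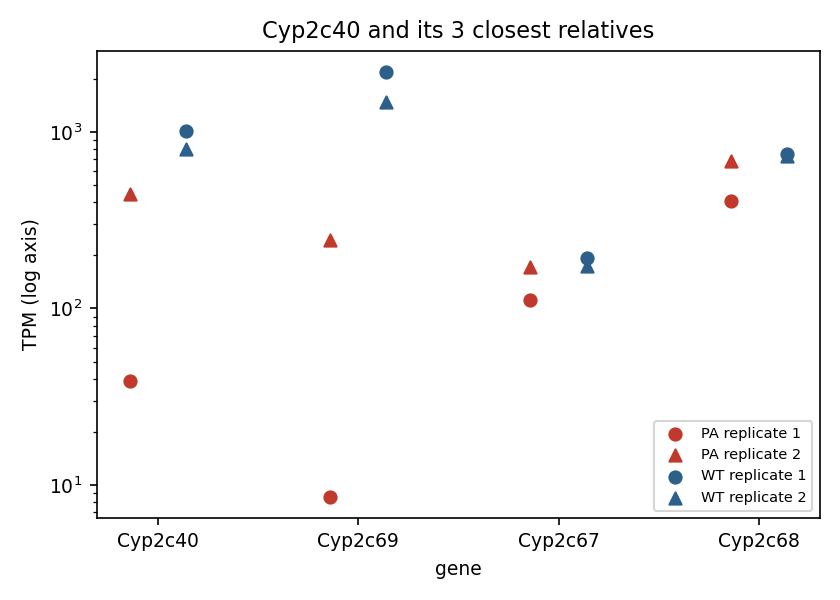
TPM (log axis) of Cyp2c40, Cyp2c69, Cyp2c67 and Cyp2c68 in PA replicates 1 and 2 (red) and WT replicates 1 and 2 (blue). Cyp2c69 spans 8.60 to 2183 TPM and Cyp2c40 38.7 to 1009 TPM, while the 4 points of Cyp2c67 span 112 to 193 TPM.

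Near copies share reads, and multimapping reads are not in the deposited STAR counts. The share of 75-base transcript windows found in no other gene was 54.1% for Cyp2c40, the lowest of the members, and 57.4, 64.0 and 71.5% for Cyp2c69, Cyp2c67 and Cyp2c68. RSEM, which shares such reads out, gave Cyp2c40 1.66 and 1.69 times its STAR count in PA and 1.77 and 1.74 times in WT. For the other 9 members, with unique shares of 85.9% to all windows, this ratio lay between 0.739 and 0.904. For Cyp2c69, Cyp2c67 and Cyp2c68 it lay between 0.992 and 1.10, so a low unique share did not go with a high ratio in every gene. The log2 fold change of Cyp2c40 was -1.81 with RSEM counts. With the 4 relatives added as 1 feature, an alternative chosen after seeing the data, it was -1.59 in STAR counts (edgeR adjusted p = 0.154) and -1.60 in RSEM counts (edgeR adjusted p = 0.183). In TPM the 4 relatives summed to 566 and 1539 in PA and to 4139 and 3186 in WT.

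**Figure D4:**
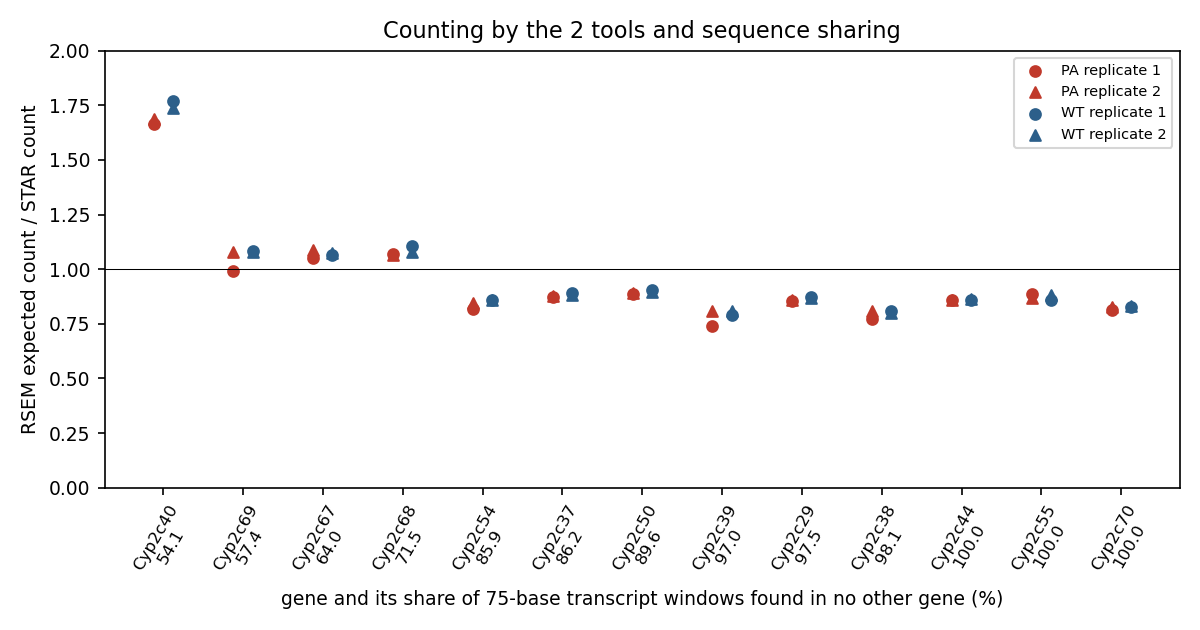
RSEM expected count divided by STAR count for 13 Cyp2c genes in each library, ordered by the share of 75-base windows unique to the gene (printed under each name). Cyp2c40 lies at 1.66 to 1.77, above the line at 1, and the other members lie below it.

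Cyp2c37, Cyp2c50 and Cyp2c54 form another group of relatives, 95.1 to 96.1% identical in coding sequence, toward the distal end of the cluster. Cyp2c37 (ENSMUSG00000042248, chromosome 19, 39992424 to 40012243, plus strand), a CAR-inducible enzyme that makes a hydroxy acid from arachidonic acid, was at 1597 and 1213 CPM in PA and at 1560.3 and 1617 CPM in WT. The groups overlapped, and the log2 fold change was -0.18 with a 95% interval of -0.82 to 0.46 (edgeR adjusted p = 0.861). Cyp2c50 (ENSMUSG00000054827, chromosome 19, 40089688 to 40113950, plus strand), an epoxygenase, was at 1002 and 1216 CPM in PA and at 1028 and 1081 CPM in WT. Here the WT values lay between the PA values, with a log2 fold change of 0.07 and a 95% interval of -0.53 to 0.68 (edgeR adjusted p = 0.948). Cyp2c54 (ENSMUSG00000067225, chromosome 19, 40037940 to 40073827, minus strand), also an epoxygenase, was at 134 and 309 CPM in PA and at 435 and 389.7 CPM in WT. Both PA values lay below both WT values, and PA replicate 1 was the lowest library. PA over WT gave a log2 value of -0.90 (SE 0.39, 95% interval -1.82 to 0.02, edgeR adjusted p = 0.433). It was -1.63 without PA replicate 2 (edgeR adjusted p = 0.0103), -0.41 without PA replicate 1 (edgeR adjusted p = 0.358), and -0.91 with no filter on low counts (edgeR adjusted p = 0.0328). The difference between Cyp2c54 and its relatives was not tested.

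Cyp2c44 (ENSMUSG00000025197, chromosome 19, 44005022 to 44029208, minus strand) lies 3.82 Mb from the end of the cluster and encodes an arachidonic acid epoxygenase that has been studied in the mouse kidney. It was at 77.4 and 153 CPM in PA and at 182 and 253 CPM in WT, with no overlap. PA over WT gave a log2 value of -0.91 (SE 0.36, 95% interval -1.76 to -0.07, edgeR adjusted p = 0.374). It was -1.49 without PA replicate 2 (edgeR adjusted p = 0.0275), -0.50 without PA replicate 1, and -0.93 with no filter on low counts (edgeR adjusted p = 0.0205). Cyp2c55 (ENSMUSG00000025002, chromosome 19, 39007019 to 39042693, plus strand), whose enzyme hydroxylates arachidonic acid and whose transcript is well known from the intestine, was at 7.30 and 5.92 CPM in PA and at 7.73 and 4.71 CPM in WT. The groups overlapped (log2 fold change 0.08, 95% interval -0.62 to 0.79, edgeR adjusted p = 0.949), and the sign turned without PA replicate 1 (-0.07) and without WT replicate 2 (-0.22).

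Cyp2c70 (ENSMUSG00000060613, chromosome 19, 40153353 to 40187333, minus strand) is the enzyme that makes the muricholic acids of mouse bile. It was at 451 and 1139 CPM in PA and at 741 and 728 CPM in WT. One PA liver lay below both WT livers and the other above them, while the WT livers were close to each other. PA over WT gave a log2 value of 0.11 (SE 0.42, 95% interval -0.88 to 1.11, edgeR adjusted p = 0.951). With PA replicate 1 left out the value was 0.64, and with PA replicate 2 left out it was -0.70, so the direction differed with the PA library kept.

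The CPM of the PA livers lay further apart than that of the WT livers in 7 members, and the WT livers lay further apart in 3 (Cyp2c38, Cyp2c39 and Cyp2c55). The PA livers were further apart over all tested genes too, with a median absolute log2 difference of 0.34, against 0.22 between the WT livers. PA replicate 1 and PA replicate 2 were over 2-fold apart in 4 members (Cyp2c29, Cyp2c40, Cyp2c54 and Cyp2c70), against 9.86% of all tested genes, and the WT replicates in 0 members, against 5.20% of all tested genes. PA replicate 1 was the lowest of the 4 libraries in 6 members and lay below PA replicate 2 in 8. The share of all tested genes with these orders was not taken, so the counts are not read as a trait of Cyp2c. The sum over the 10 members was 2136 and 4053 TPM in PA and 4632 and 4489.7 TPM in WT. On the TMM-scaled CPM scale the sum was 4044 and 5824 in PA and 5849.9 and 6184 in WT. Both PA sums lay below both WT sums on either scale, although in CPM PA replicate 2 nearly reached WT replicate 1. Of single tested genes, 36% had PA values wholly below WT values in TPM and 21.9% in CPM. Read as the mean of PA over the mean of WT, the sum is -0.56 on the log2 scale in TPM and -0.29 in CPM, and it was not tested.

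The make-up of the pool differed between the libraries as well. Cyp2c40 held 1.81 and 10.9% of the members' summed TPM in PA and 21.8 and 17.8% in WT. Cyp2c37 held 38.5 and 19.3% in PA and 23.3 and 23.5% in WT, so its share in PA replicate 1 was high while its own TPM there was below both WT values. Cyp2c50 held 25.9 and 20.5% in PA, above its 16.6 and 16.7% in WT. Cyp2c70 held 12.2 and 20.1% in PA and 12.1 and 11.6% in WT. Cyp2c38, Cyp2c39 and Cyp2c55 held the ranks 8, 9 and 10 in every library.

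**Figure D5:**
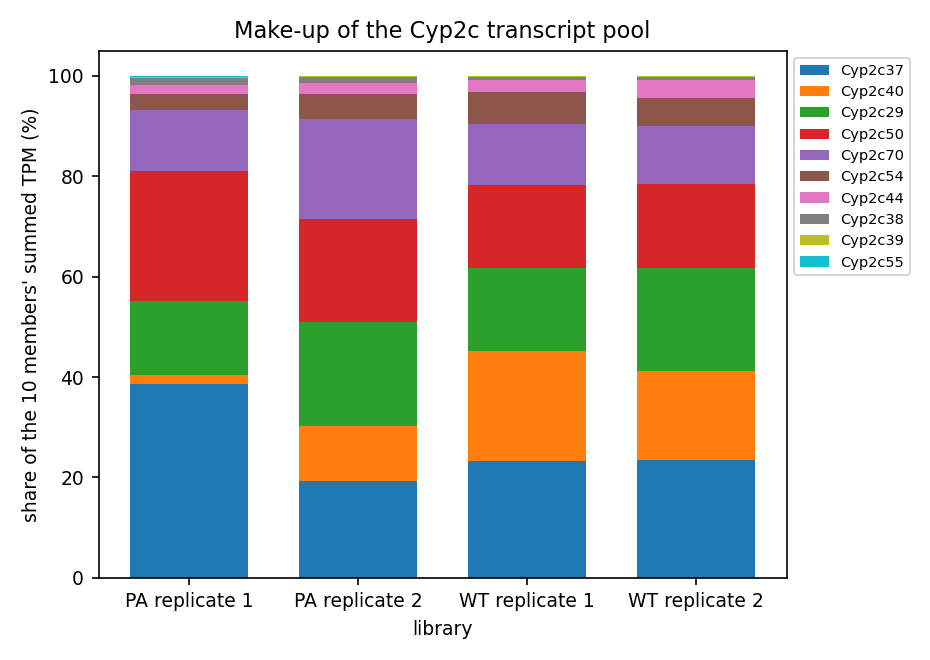
Share of each member in the summed TPM of the 10 members (%), for PA replicates 1 and 2 and WT replicates 1 and 2. The share of Cyp2c40 is 1.81 and 10.9% in PA and 21.8 and 17.8% in WT, and Cyp2c37 takes 38.5% in PA replicate 1.

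Upstream sequence was compared for the Cyp2c29 group too, because the CPM of Cyp2c38 and Cyp2c39 lay above WT in both PA livers and that of their relative Cyp2c29 did not, a difference that was not tested. The 250 bases before the RefSeq start lie at chr19:39463076-39463325 (minus strand) for Cyp2c38, chr19:39510572-39510821 (plus strand) for Cyp2c39 and chr19:39286835-39287084 (plus strand) for Cyp2c29, in GRCm38.p6, with the HNF4A core motif in capitals. Of 2 RefSeq starts for Cyp2c39, the one nearest the annotated gene start is shown.
Cyp2c38: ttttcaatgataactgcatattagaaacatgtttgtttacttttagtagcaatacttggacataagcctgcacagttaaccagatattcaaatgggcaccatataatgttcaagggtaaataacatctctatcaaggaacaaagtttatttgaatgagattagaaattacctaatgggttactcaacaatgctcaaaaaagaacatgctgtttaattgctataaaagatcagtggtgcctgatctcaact
Cyp2c39: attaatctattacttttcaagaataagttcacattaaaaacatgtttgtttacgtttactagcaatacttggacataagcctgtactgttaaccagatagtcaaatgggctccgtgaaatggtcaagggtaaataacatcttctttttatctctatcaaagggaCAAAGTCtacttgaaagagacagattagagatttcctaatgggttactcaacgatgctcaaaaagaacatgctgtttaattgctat
Cyp2c29: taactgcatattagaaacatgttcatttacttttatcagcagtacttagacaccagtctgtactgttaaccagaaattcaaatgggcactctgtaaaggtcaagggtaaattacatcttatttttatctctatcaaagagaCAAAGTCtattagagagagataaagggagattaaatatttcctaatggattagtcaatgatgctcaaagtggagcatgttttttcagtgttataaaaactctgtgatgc
The stretches of Cyp2c38 and Cyp2c39 were 83.2% identical over 238 columns, those of Cyp2c39 and Cyp2c29 79.5% over 234, and those of Cyp2c38 and Cyp2c29 74% over 250 columns. The HNF4A core motif stood at position -86 from the start in Cyp2c39 and at -109 in Cyp2c29, and these letters are not in the window of Cyp2c38.

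RefSeq promoters, from 250 bases before to 50 after the start, were matched by symbol for 8 of the 10 members. Motifs were searched on both strands. HNF4A is a nuclear receptor that defines hepatocytes, and its core motif CAAAGTC was in 5 of the 8 (Cyp2c29, Cyp2c37, Cyp2c39, Cyp2c40 and Cyp2c70), against 4.44% of 32851 RefSeq promoters. The longer HNF4A-specific motif CAAAGTCCA, which contains the core, was in Cyp2c40 and Cyp2c70, against 0.475% of all. The nuclear receptor core AGGTCA was in 3 members (16.3% of all promoters; in Cyp2c39 only at the more distant RefSeq start, not in the stretch printed), the forkhead motif TGTTTAC in 2 (3.65%), the C/EBP motif TTGCNNAA in 2 (10.8%) and the TATA box TATAAA in 6 (13.6%). The STAT5 motif TTCNNNGAA was in 0 members (8.30% of all promoters), as was the palindromic HNF1 motif (0.00913%). The TATAAA letters lay at -31 to -19 from the start in Cyp2c29, Cyp2c38, Cyp2c55 and Cyp2c70. In Cyp2c39 they lay at -3 and in Cyp2c40 at 40 bases after the start, so these 2 matches are not upstream TATA boxes of the annotated starts. A match describes letters in a window and is not a bound site.

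The cluster from Cyp2c52-ps to Cyp2c70 spans 1.21 Mb on chromosome 19 and holds 9 of the 10 members among 16 annotated Cyp2c genes and pseudogenes. Protein-coding genes next to the cluster were read as well, and none of the 5 given here was called by edgeR. Before the cluster, Noc3l, Tbc1d12 and Hells had log2 fold changes of 0.19, -0.37 and -0.39 (edgeR adjusted p = 0.819, 0.549 and 0.761). After it, Pdlim1 and Aldh18a1 had log2 fold changes of 0.05 and -0.94 (edgeR adjusted p = 0.98 and 0.478). Pdlim1 was at 11.9 and 26.9 CPM in PA and at 18.6 and 18.9 CPM in WT, with the WT livers between the PA livers. The share of all tested genes with this order was not taken. Tbc1d12 and Aldh18a1 had both PA values below both WT values.

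Genes that work with or control the members were read from lists. Of 19 tested genes of electron supply and heme, 0 were called by edgeR and 2 had an unadjusted p under 0.05 (median log2 fold change 0.05, against 0.0049 over all tested genes). The most abundant were Cyb5a, cytochrome b5, and Pgrmc1, a heme-binding membrane protein, with log2 fold changes of 0.18 and 0.01. Of 29 transcriptional regulators of hepatic P450 genes, 0 were called by edgeR and 4 had an unadjusted p under 0.05 (median 0.05). Hnf4a was at 511 and 568 CPM in PA and at 557 and 461 CPM in WT, and Rxra, the partner of CAR and PXR, had a log2 fold change of 0.06. Of 27 CAR and PXR targets outside Cyp2c, 4 were called higher and 0 lower, and 10 had an unadjusted p under 0.05 (median 0.47). The 4 were the glutathione transferases Gsta1 and Gsta2 (log2 fold changes 4.52 and 2.86), the estrogen sulfotransferase Sult1e1 (5.10) and the efflux pump Abcc4 (2.47). Sult1e1 was at 7.42 and 2.66 CPM in PA and at 0.163 and 0.118 CPM in WT. Gsta1 was at 7.22 and 4.44 CPM in PA and at 0.228 and 0.275 CPM in WT. Their WT values lay near the level of 3 counts, 0.0996 to 0.117 CPM, so these large fold changes rest on few WT reads. The other targets on the list were not called. Over the 27 targets, 20 had a positive log2 fold change and 7 a negative one. Cyp2c29 and Cyp2c37, given above as CAR-inducible, were not called, like the other Cyp2c members. With 2 mice a group, a missing call does not show equal levels.

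Of 24 tested eicosanoid genes outside Cyp2c, 1 was called higher and 1 lower (median log2 fold change -0.12). The fatty acid omega-hydroxylase Cyp4a14 rose to 1493 and 1783 CPM in PA, against 441 and 351 CPM in WT, and Ptgds, a prostaglandin D synthase, fell to 0.275 and 0.404 CPM in PA, against 4.50 and 2.08 CPM in WT (edgeR adjusted p = 0.0295 and 0.0472). Of 22 tested bile acid genes, which bear on Cyp2c70, 1 was called higher and 2 lower (median -0.20). Slc51b, part of a bile acid exporter, had a log2 fold change of 2.33, the oxysterol hydroxylase Cyp7b1 of -1.77 and the bile acid importer Slc10a2 of -3.95. Of 21 tested genes of retinoid metabolism, which bear on Cyp2c39, 0 were called by edgeR and 3 had an unadjusted p under 0.05 (median -0.10), with log2 fold changes of 0.23 for Ttr and 0.87 for Rbp4, which carry retinol in blood.

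Of 13 tested P450 genes outside Cyp2c with a known sex bias, 5 were called lower and 1 higher, with a median log2 fold change of -1.68. Cyp3a44, mainly expressed in female liver, fell to 0.981 and 1.01 CPM in PA, against 459 and 414 CPM in WT (edgeR adjusted p = 0.000112). Cyp3a41a, Cyp3a41b, Cyp3a16 and the oxysterol hydroxylase Cyp7b1 were called lower as well. The list was not split by the direction of the sex bias, so its median and sum do not measure female-biased genes alone. The whole list summed to 1039.7 and 1995 CPM in PA and to 2965 and 3929 CPM in WT, with PA replicate 1 the lowest library. That order did not hold for every called gene, since Cyp3a16 was at 3.85 CPM in PA replicate 1 and at 0.841 CPM in PA replicate 2. Cyp2a22, the higher call, had a log2 fold change of 2.21 and was named after its value was seen.

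Markers of liver zones and of other cell types were read in the same libraries. Of 17 pericentral hepatocyte markers 0 were called by edgeR and 2 had an unadjusted p under 0.05 (median 0.0096; Cyp2e1 0.24 and Rgn -0.62). Of 18 periportal markers 0 were called by edgeR and 9 had an unadjusted p under 0.05 (median 0.56; Cps1 1.07 and Arg1 0.74). Kupffer cell and macrophage markers summed to 416 and 593 CPM in PA and to 964 and 829 in WT, with 13 of 14 below 0 in log2 fold change and 0 called by edgeR. B cell markers summed to 8.04 and 9.20 CPM in PA and to 21.6 and 18.1 in WT, and red blood cell markers, of which Hbb-bs and Hbb-bt were called lower, to 11.6 and 16.6 in PA and to 91.7 and 47.3 in WT. T and NK cell markers summed to 7.04 and 6.28 in PA and to 9.32 and 8.25 in WT, and neutrophil markers to 3.89 and 3.22 in PA and to 9.52 and 4.69 in WT. Endothelial, stellate and cholangiocyte markers summed to 264 and 280, 412 and 372, and 29.5 and 32.4 CPM in PA, against 356 and 315, 402 and 390.2, and 35.6 and 48.6 in WT, with 0 called by edgeR. The cholangiocyte sum is mostly Spp1 (log2 fold change -0.57), while 4 of the 5 tested cholangiocyte markers had a positive log2 fold change (median 0.65, 3 of the 5 with an unadjusted p under 0.05). Pancreatic acinar markers summed to 11.9 and 7.87 in PA and to 30.7 and 17.1 in WT, with 5 of 10 at 0 in every library. That sum is mostly Cela1 (log2 fold change -1.27), while the other tested acinar marker, Cela2a, had a log2 fold change of -0.000187. Intestinal markers, which bear on Cyp2c55, were at 0 in every library for 7 of 11, and Fabp2 fell to 44.4 and 37.5 CPM in PA, against 101 and 97.0 CPM in WT (edgeR adjusted p = 0.0487). Of 13 mitochondrially encoded genes, 1 was called, mt-Nd6, and all 13 had a positive log2 fold change. The part of these cell types, zones and mitochondrial reads in the Cyp2c values was not tested.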

How the data were processed

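Liver polyA RNA of 2 PA and 2 WT female mice was sequenced, and groups came from the sample titles. Raw read counts per gene (the STAR column for the opposite strand, which held 97.0 to 97.1% of stranded counts) were deposited by the authors. RSEM expected counts and TPM were deposited by the authors too, per the file headers; RSEM's FPKM values, also deposited, were not used. Per the submitters' processing notes, STAR 2.7.6a, RSEM 1.3.3 and GRCm38 were used, and the annotation release is not given in the sources used here. Symbols and positions came from GENCODE M21, which matched 55141 of 55487 identifiers. The 4 leading STAR lines that count unassigned reads (28.1 to 34.3% of reads) were left out.

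The quasi-likelihood test of edgeR 4.0.16 (R 4.3.3; TMM, filterByExpr, genotype only) was fitted to 14411 genes with Benjamini-Hochberg adjustment. Standard errors are the log2 fold change over the root of F, and intervals are at the 95% level. RSEM expected counts were rounded to whole numbers before the alternative edgeR fit. DESeq2 1.42.0 and limma-voom (limma 3.58.1) were alternatives. The 75-base windows were a choice made here, with the read length not given in the sources used here. Identities came from global alignments with free end gaps (Biopython 1.88).

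The members and lists were chosen with earlier results of these data known. Named genes were the members, the other Cyp2c genes, the flanking genes and, per list, up to 4 called genes by smallest p or the 2 most abundant; exceptions are stated, and 1 flanking gene is not reported here. At these depths 3 counts equal 0.0996 to 0.117 CPM, a floor for counting error only.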

Additional observations from a re-analysis of the deposited data

How the results depend on the processing

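Under 14 alternatives, 126 of the 140 members' log2 fold changes kept their direction and their side of the threshold, 8 turned sign and 6 became called. Higher and lower calls over all genes, 38 and 79 with edgeR, were 414 and 488 with no filter on low counts and 186 and 249 with DESeq2. With no filter the SE of the 10 members lay between 0.26 and 0.29, against 0.20 to 0.84 in the main fit. Called members numbered 0 in either direction, except 3 lower with no filter and 3 lower without PA replicate 2 (Cyp2c40, Cyp2c44 and Cyp2c54 in both); the cause was not tested. Leaving out 1 library in turn gave 50 to 239 higher and 105 to 261 lower calls, and 0 to 3 members called lower. Over those fits the log2 fold change ran from -1.04 to 0.059 for Cyp2c29, from -0.38 to 0.0059 for Cyp2c37, from -0.076 to 0.21 for Cyp2c50, from -0.22 to 0.48 for Cyp2c55 and from -0.70 to 0.64 for Cyp2c70. With limma-voom Cyp2c70 was at -0.042.

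With the replicate number as a replicate block there were 126 higher and 192 lower calls and 0 members called, and Cyp2c70 was at -0.035. The labels tie the numbers to no shared litter or day. Deviations of same-numbered libraries correlated at -0.09 over genes, and with 2 mice a group this cannot show whether they share more than a number. With 2 mice a group, missing the threshold does not show equal levels. The p-values rest on the spread between these mice and no others, with the spread of each gene moderated toward that of all tested genes.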

Other observations

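Cyp2c52-ps, a pseudogene at the proximal edge of the cluster, had 20 and 28 counts in PA and 7 and 8 counts in WT (log2 fold change 1.67, SE 0.46, edgeR adjusted p = 0.210). Cyp2c65, best known from the intestine, had 1 and 0 counts in PA and 1 and 2 counts in WT. Cyp2c66, Cyp2c53-ps and the chromosome 14 pseudogene Cyp2c73-ps had 0 counts in all 4 libraries, which allows a level of up to 0.0996 to 0.117 CPM. On the strand opposite to the transcripts the 10 members had between 0 and 29 counts per library, 0.0536% of their stranded reads.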
